A study of Homo sapiens with 9 samples.

Results

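The FANTOM lncRNAs described here are the transcripts of the deposited count table whose identifiers begin with CATG and which were selected on their counts, a sum of at least 45 over the 9 libraries. Of 19329 CATG rows, 775 (4.01%) reached that sum, 7901 had counts below it and 10653 were at 0 in all 9 libraries. The whole table held 57163 rows. The cells were 293T, an established line of transformed embryonic kidney cells, and their RNA was taken 48 h after they received lentiviral-vector plasmids in which the EF1A promoter drives the open reading frame of 1 transcription factor (TF). The CLB_TFs, which the study defined as TFs with preferential binding to conserved lncRNAs, were NRF1, E2F4, EGR1 and ZBTB7A. HOXA11, RORA, TFCP2 and NKX2-8 served as control TFs, without such preference. The ninth library was the control, called blank in the labels and an empty control plasmid in the methods. With 1 library per condition, no comparison of a TF library with the control library has a replicate check, and each describes those libraries alone.

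FANTOM CAT joined transcript models to 5′ ends mapped by CAGE, a method that sequences capped RNA ends, and many of its lncRNAs have no name of their own. Such transcripts are often grouped by their position to a coding gene. A divergent lncRNA starts beside a coding promoter and is transcribed away from it, and an antisense lncRNA runs through a coding gene on the opposite strand. Others lie in introns or far from coding genes, where enhancers are transcribed as well. The nuclear exosome, with its adaptor complexes, and Integrator are known to remove or terminate many short-lived noncoding transcripts, so steady-state levels of these RNAs are commonly low.

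The study asked whether overexpressed CLB_TFs change conserved lncRNAs more than others, and whether lncRNAs with a TF's motif in their promoter respond to it. Starts of members were therefore searched on both strands of GRCh37, from 250 bases before to 50 bases after the start, for GCGCANGCG (the NRF1 motif), GGCGGGAA (E2F) and GCGTGGGCG (EGR1). These letters were found at 76 members for NRF1 (9.81%, against 2.67% of all lncRNA starts of the table), at 33 for E2F (4.26% against 1.49%) and at 8 for EGR1 (1.03% against 0.375%). All lncRNA starts include those of rows without counts, and they were not matched to members by level or GC content. The shares therefore do not set members apart from other expressed lncRNAs. The 4 windows below are shown because they belong to members with a match that were at least 2-fold higher in the library of the matching TF. All are written 5′ to 3′ on the strand of the lncRNA, with the match in capitals on either strand.
CATG00000052057.1, chr2:238536065-238536364, minus strand, divergent from LRRFIP1: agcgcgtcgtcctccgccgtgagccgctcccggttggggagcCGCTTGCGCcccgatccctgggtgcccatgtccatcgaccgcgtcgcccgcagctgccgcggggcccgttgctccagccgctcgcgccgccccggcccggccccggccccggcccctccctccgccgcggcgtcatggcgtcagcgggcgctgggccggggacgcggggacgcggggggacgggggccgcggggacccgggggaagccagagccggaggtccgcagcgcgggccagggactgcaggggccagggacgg
CATG00000015777.1, chr13:95201449-95201748, plus strand, intergenic, nearest coding gene TGDS: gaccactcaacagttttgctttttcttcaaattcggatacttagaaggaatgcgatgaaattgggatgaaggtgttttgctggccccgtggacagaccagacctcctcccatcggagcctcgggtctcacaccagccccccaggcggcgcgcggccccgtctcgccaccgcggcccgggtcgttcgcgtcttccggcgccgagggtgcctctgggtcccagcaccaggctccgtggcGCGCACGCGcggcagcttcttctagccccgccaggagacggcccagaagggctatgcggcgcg
CATG00000056265.1, chr21:46293547-46293846, plus strand, antisense to PTTG1IP: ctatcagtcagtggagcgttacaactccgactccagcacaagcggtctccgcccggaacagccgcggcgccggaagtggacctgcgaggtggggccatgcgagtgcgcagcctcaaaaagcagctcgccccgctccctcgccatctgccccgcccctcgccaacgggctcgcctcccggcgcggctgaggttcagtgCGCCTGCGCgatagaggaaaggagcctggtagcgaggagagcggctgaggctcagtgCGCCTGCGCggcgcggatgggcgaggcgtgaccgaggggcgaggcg
CATG00000044635.1, chr2:132767540-132767839, plus strand, intergenic, nearest coding gene ANKRD30BL: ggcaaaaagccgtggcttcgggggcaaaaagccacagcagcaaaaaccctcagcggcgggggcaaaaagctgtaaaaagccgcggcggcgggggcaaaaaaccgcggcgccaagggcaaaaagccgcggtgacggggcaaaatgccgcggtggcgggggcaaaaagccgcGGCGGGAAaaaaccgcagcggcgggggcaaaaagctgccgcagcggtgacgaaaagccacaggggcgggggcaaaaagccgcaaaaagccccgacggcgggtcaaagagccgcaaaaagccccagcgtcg

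The first 3 windows carry the NRF1 letters and the last carries the E2F letters. CATG00000052057.1 starts 105 bases from the start of LRRFIP1 and had 1 count in the control library, 18 in the NRF1 library and 3 to 5 in each of the 7 others. CATG00000015777.1 had 2 counts in the control library, 17 in the NRF1 library and 2 to 9 elsewhere. The transcript antisense to PTTG1IP holds 2 matches, and its counts were 15 in the control library, 51 in the NRF1 library and 14 to 32 in the others. In all 3 the NRF1 library was the highest of the 9. CATG00000044635.1 was at 0 in the control library, at 40 in the E2F4 library and at 0 to 4 in the others.

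Library totals ran from 14177970 counts (ZBTB7A) to 18915400 (control). Levels are given as CPM, counts relative to the library total after scaling by TMM, a method that aligns libraries on the bulk of their genes, and 1 CPM stood for 14.5 to 18.4 counts. Each inserted TF was highest in its own library, at 40632 to 264495 counts against 90 to 9812 in the control library. The upper of these control values was TFCP2, for which no TF library but its own exceeded 703 counts. The control library thus stood apart for this insert, and the calls, the medians of position classes and the named changes were also computed with the mean of the 7 remaining TF libraries as the reference. Of the 293T and kidney markers named here, PAX2, LHX1, NEFM and NEFL were present in all libraries, whereas PAX8 had at most 2 counts. Of leukocyte markers, PTPRC and CD3E had at most 1 count and CD79A 1 to 9. Of fibroblast markers, COL1A2 and DCN had at most 4 counts, LUM had 6 to 17 and COL1A1 was present at 22.6 to 38.8 CPM. KRT5 had at most 3 counts, KRT14 at most 15 and ALB at most 5. Detection was widest in the NRF1 and EGR1 libraries, with counts in 4180 and 4391 CATG rows against 3207 to 3687 in the 7 other libraries. The same held over all rows of the table, at 26166 and 26296 rows with a count against 23344 to 24593.

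Members lay mainly opposite to or beside coding genes. Antisense overlap, in which the spans of the member and a coding gene overlap on opposite strands, held 380 members (49.0%). Another 154 (19.9%) were divergent, with head-to-head starts at most 2000 bases apart. Intergenic members, more than 5000 bases from any coding gene, numbered 132 (17.0%), and 87 (11.2%) overlapped a coding gene on the same strand, mostly within introns. The remaining members were 7 downstream and 7 upstream on the same strand and 8 in other arrangements within 5000 bases. The study removed lncRNAs that overlap coding mRNAs on the same strand, and 24 members shared exon bases with a coding gene of the newer annotation used here for names.

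The classes differed in structure and base composition. The window around the start had a median GC content of 71.3% for divergent members, 65.7% for antisense, 51.8% for intergenic and 43.3% for sense overlap members. Median exon length was 4322 bases for antisense, 3700 for divergent, 4598 for intergenic and 2611 for sense overlap members. Single-exon models made up 303 of the 775 members. Antisense members were frequently close to the promoter of the gene they overlapped, since 223 of 380 started within 2000 bases of its start. Of these 380, 336 had exon bases opposite a coding exon, so their counts depend on the counting having used strand. The library kit was directional. The sources used here do not give the strand setting of the counting. The coding gene had more counts than the member in 348 of the 380 pairs, by a median of 39.6 times. Across the 380 pairs, which share the 9 libraries, the sums of counts of member and coding gene had a Spearman's rho of 0.115. Among 109 such members whose coding gene had over 10000 counts, 53 had 5 or fewer counts in at least 1 library. An example is CATG00000058404.1 (chr22:29695092-29695828, minus strand). All 721 of its exon bases lie opposite exons of EWSR1, an RNA-binding protein gene with 6042 to 8031 counts per library, and it was at 0 in the control and HOXA11 libraries.

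Most members were scarce. Their median sum of counts was 90, and 209 of 775 had a mean of at least 1 CPM over the 9 libraries, 21 of them at least 5 CPM. The 10 most abundant took 15.3% of all counts of members. CATG00000083589.1 (chr6:32862537-32878303, plus strand, intergenic, nearest coding gene HLA-DMB) led, with 409 counts in the control library, 366 in NRF1, 524 in E2F4, 336 in EGR1, 356 in ZBTB7A, 356 in HOXA11, 424 in RORA, 378 in TFCP2 and 349 in NKX2-8. It shares exon bases with the pseudogene HLA-Z, so its counts are uncertain. CATG00000066476.1 (chr1:92486869-92495944, minus strand) starts 405 bases from EPHX4, an epoxide hydrolase gene, and runs antisense to it. It had 351 counts in the control library, 562 in E2F4 and 221 to 352 in the others. The E2F4 library was the highest for both, by 0.40 and 0.72 in log2 fold change (log2FC) to the control library, under 2-fold. Its coding neighbour EPHX4 had 54 counts in the control library, 185 in E2F4 and 42 to 104 in the others.

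The leading divergent members were CATG00000108408.1, 100 bases from AL591479.1, with 147 to 222 counts per library, and CATG00000072866.1, 83 bases from the septin gene SEPTIN11, with 99 to 153. CATG00000079532.1 (177 to 325 counts) runs antisense to NIPBL, which encodes the cohesin loader, and shares exons with the named lncRNA NIPBL-DT. Among sense overlap members the leaders were CATG00000089732.1 at GOPC (71 to 110 counts) and CATG00000061929.1 at PCCB (46 to 88 counts). The member at GOPC shares 539 exon bases with GOPC on the same strand in the newer annotation, so its counts are uncertain. CATG00000009052.1, upstream of the homeobox gene HOXC11, had 10 to 34 counts.

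Per kilobase of exon, a different set led. CATG00000094161.1 (chr7:137198562-137264379, plus strand, antisense to the diacylglycerol kinase gene DGKI) had a mean of 18.7 CPM per kb and 91 to 170 counts per library. CATG00000042732.1 (chr1:523500-569943, minus strand) followed at 16.8 CPM per kb and 136 to 194 counts. Both share exon bases with an annotated pseudogene on the same strand, 75 bases in the first case and 6 in the second. In the second case 422 exon bases also lie opposite the mitochondrial copy MTATP6P1. Only uniquely mapped reads were counted, and the levels of both members are uncertain. The next were CATG00000061929.1 at PCCB (7.22 CPM per kb), CATG00000018008.1, intergenic near MYO16 (5.24), CATG00000111151.1 at the kinase gene CDK16 (5.11) and CATG00000060205.1, antisense to the transketolase gene TKT (4.84). The last of these had 29 to 35 counts in every library, a narrow range for its depth.

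Members just inside the sum of 45 show how little a fold can rest on. There were 16 CATG rows at that sum. CATG00000005468.1 had 1 to 10 counts per library, CATG00000030491.1 had 19 in the NRF1 library and 1 to 6 in the others, and CATG00000030633.1 had 2 to 11. Just outside, 17 rows had a sum of 44. CATG00000002536.1 had 1 to 12 counts, CATG00000012735.1 had 2 to 12 and CATG00000033349.1 had 1 to 9. Because the sum includes the library in which a member is high, a member high in 1 library could enter through that library alone.

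Against the control library, members were called changed where they differed at least 2-fold, with a prior count of 2, and reached 1 CPM in the higher library. The NRF1 library had the most. Of 347 members at that level, 97 rose and 6 fell, where the shares over all genes of the table were 8.24% and 0.235%. In the E2F4 library 21 rose and 11 fell of 272 (all genes: 3.68% and 0.261%), and in the EGR1 library 31 rose and 6 fell of 274 (2.5% and 0.28%). The ZBTB7A library had 10 that rose and 11 that fell of 245 (1.92% and 0.439%). Among the control TFs, 22 rose and 8 fell of 267 in the HOXA11 library (1.17% and 0.34%), 3 rose and 10 fell of 241 in RORA (0.522% and 0.393%), 6 rose and 5 fell of 262 in TFCP2 (0.491% and 0.185%), and 31 rose and 18 fell of 260 in NKX2-8 (2.83% and 0.879%). The direction in the RORA library depended on the minimum level, since at 0.5 CPM 33 rose and 25 fell. In ZBTB7A, where risen and fallen members were about equal, 35 rose and 34 fell at 0.5 CPM, and 12 and 9 with library totals.

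**Figure D1:**
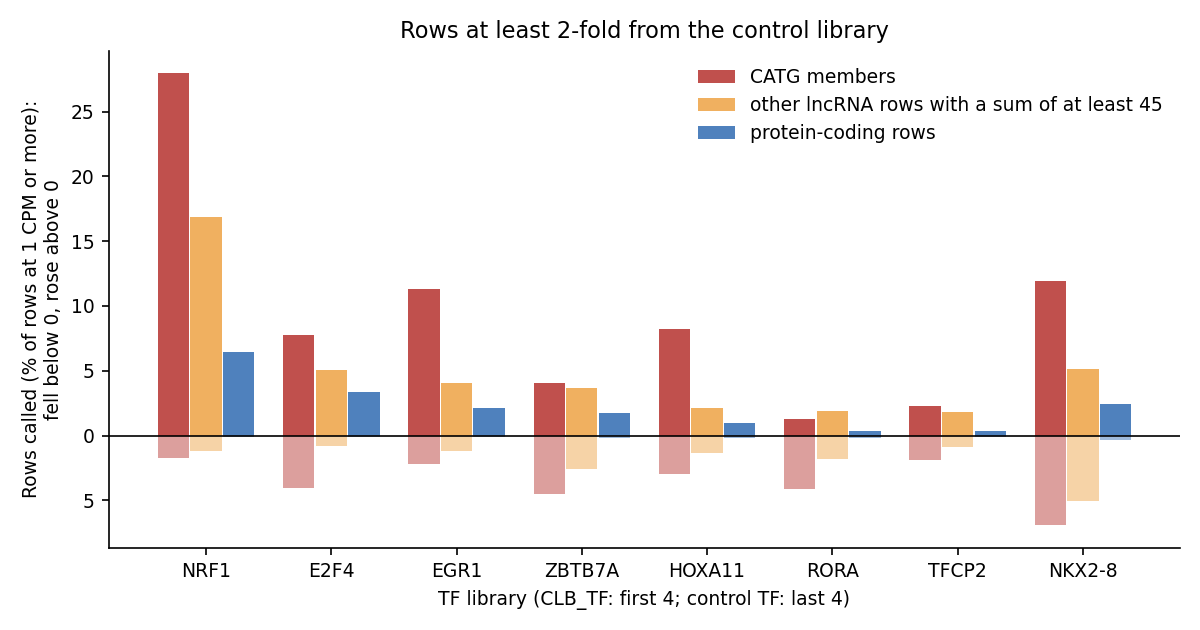
Percent of rows at 1 CPM or more that rose (above 0) or fell (below 0) at least 2-fold against the control library, for each of the 8 TF libraries, with CATG members, other lncRNA rows with a sum of at least 45 and protein-coding rows as bars. The bar of the members in the NRF1 library, 27.95% risen, is the tallest, and all comparisons share 1 control library.

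The plot of risen and fallen shares sets members beside other rows. In the NRF1 library 27.95% of members rose, against 16.9% of other lncRNA rows with the same minimum sum and 6.48% of protein-coding rows. In the HOXA11 library the shares were 8.24%, 2.11% and 0.951%, and in the RORA library 1.25%, 1.87% and 0.375%. Fallen members, too, were more frequent than fallen coding genes in all 8 libraries, at 1.73% to 6.92% against 0.0877% to 0.315%. The other lncRNA rows lay between the 2 in each library, at 0.809% (E2F4) to 5.02% (NKX2-8), so much of this excess was shared with them. Intervals of called members describe the counts on which the call was made and are no further support. Of the 97 that rose in the NRF1 library, 94 had an exact 95% interval of the ratio above 1 and 33 had one above 2, and in the EGR1 library these were 30 and 13 of 31. With members chosen on the 7 libraries outside each comparison (a sum of at least 35), 77 rose in the NRF1 library, 15 in E2F4, 22 in EGR1 and 29 in NKX2-8. Among the 209 members with a mean of at least 1 CPM, 18 rose and 4 fell in the NRF1 library, a risen share close to the 8.24% of all genes. In the NRF1 library the higher risen share thus lay in scarcer members, which reached 1 CPM through the higher library. Fallen members there, 4 of 209, stayed above the 0.235% of all genes. Of the 209, 8 rose in HOXA11 and 10 in NKX2-8, above the shares of all genes (1.17% and 2.83%). In RORA and TFCP2 2 rose each, in EGR1 6, in E2F4 5 and in ZBTB7A 3. These counts are too small to be set above or below the shares of all genes (3.68% in E2F4 and 1.92% in ZBTB7A). The shares of all genes also rest on another limit, 1 CPM in the higher library in place of a mean of 1 CPM. The cause was not tested.

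In the NRF1 library the median change was highest for divergent and antisense members. NRF1 is an activator of nuclear genes for mitochondrial function that binds GC-rich promoters. The median log2FC of all 775 members was 0.27, against -0.02 over all genes of the table at 1 CPM or more. Over the 2079 other lncRNA rows with a sum of at least 45 the median was 0.23, so the shift was not particular to members. For the 209 members with a mean of at least 1 CPM it was 0.11. By class the median of members was 0.45 for divergent, 0.33 for antisense, 0.07 for intergenic and -0.01 for sense overlap members. Of those at 1 CPM or more, 60 of 192 antisense, 20 of 65 divergent, 12 of 55 intergenic and 3 of 22 sense overlap members rose, and the other 2 that rose were sense downstream. The NRF1 library held the highest CPM of the 9 for 222 of the 775 members, and the control library for 44. With the mean of the 7 remaining TF libraries as the reference, 68 members rose and 4 fell in the NRF1 library, and the class medians lay closer together, at 0.25 for divergent, 0.21 for antisense, 0.14 for intergenic and 0.15 for sense overlap members. The difference between classes therefore rested in part on the control library, and it was not tested.

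**Figure D2:**
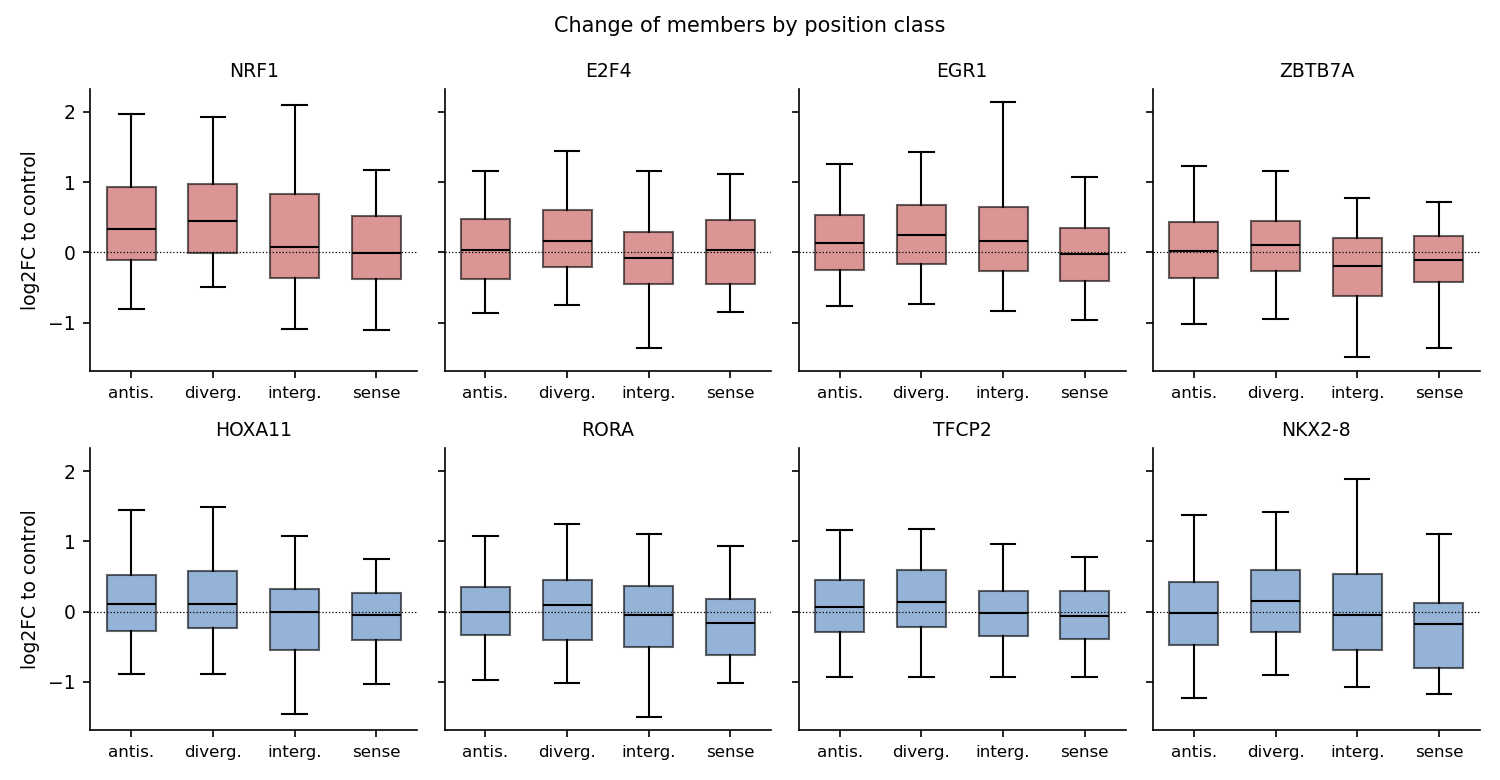
Log2 fold change (log2FC, prior count of 2) of members against the control library in the 8 TF libraries, by position class (380 antisense overlap, 154 divergent, 132 intergenic and 87 sense overlap members); boxes span the quartiles with the median, whiskers the 5th to 95th percentile, red CLB_TF and blue control TF. The divergent median lies above 0 in all 8 panels and is highest in NRF1, at 0.45.

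The plot by position class shows divergent members above 0 in every TF library. Their medians were 0.45 in NRF1, 0.17 in E2F4, 0.25 in EGR1, 0.11 in ZBTB7A, 0.11 in HOXA11, 0.09 in RORA, 0.14 in TFCP2 and 0.15 in NKX2-8. These 8 values share the control library, which had the lowest summed level of divergent members of the 9 libraries, 145.4 CPM. Library totals or DESeq2 size factors in place of TMM left all 8 above 0. With the 7 remaining TF libraries as the reference, the divergent median was 0.25 in NRF1 and -0.20 to -0.02 in the other TF libraries. Sense overlap members had medians of -0.17 to 0.03 against the control library.

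Antisense members held some of the largest rises in the NRF1 library. CATG00000064751.1 (chr3:57737310-57742953, minus strand) is antisense to SLMAP, a tail-anchored membrane protein gene, and starts 1776 bases from its start. It had 5 counts in the control library, 81 in NRF1 and 3 to 16 in the other 7, an 18.8-fold difference (exact 95% interval 7.73 to 59.4), while SLMAP itself had 1272 counts in the control library and 1118 in NRF1. CATG00000021872.1 (chr14:92966369-92980048, minus strand) is antisense to SLC24A4, a sodium, potassium and calcium exchanger gene. It had 1 count in the control library, 33 in NRF1 and 4 to 14 in the others, or 38.3-fold (6.41 to 1557). In both members no other library reached the NRF1 value.

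**Figure D3:**
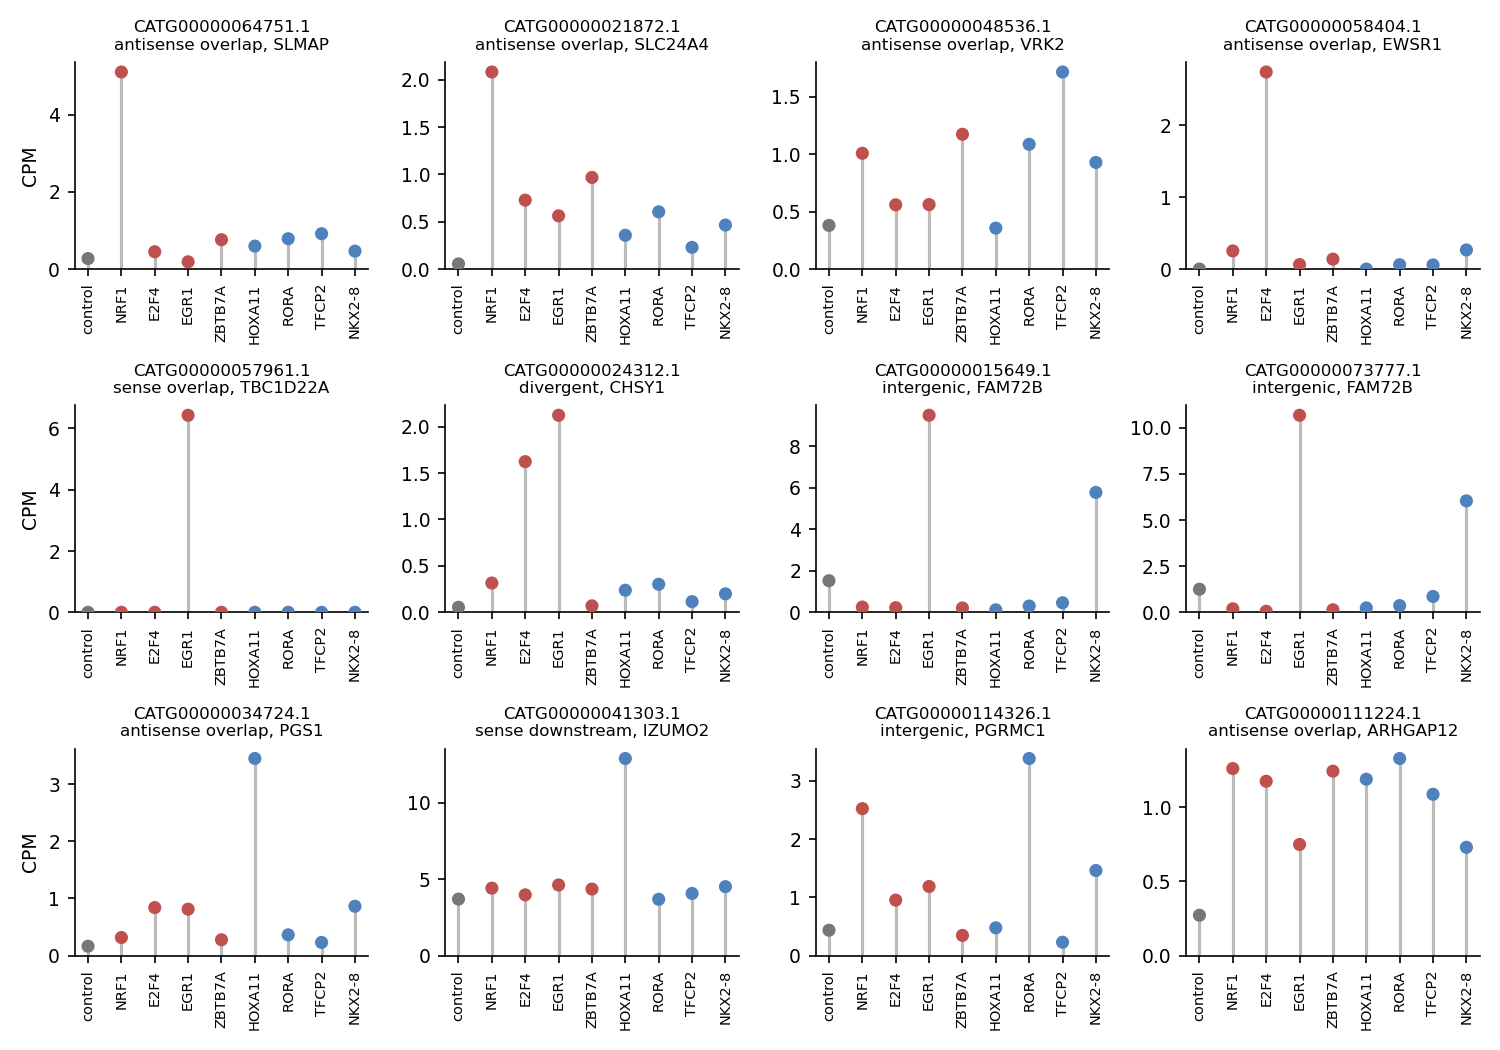
Level in CPM (scaled by TMM) of 12 members in each of the 9 libraries, 1 point per library with no replicates (grey control, red CLB_TF, blue control TF). Several panels have 1 library far above the rest, such as 5.11 CPM for CATG00000064751.1 in NRF1 and 12.9 CPM for CATG00000041303.1 in HOXA11, whereas CATG00000111224.1 is lowest in the control library.

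Most risen members had a coding neighbour that was not called. Of the 97 that rose in the NRF1 library, the nearest coding gene also rose for 5 and fell for none. In that library 6.48% of all protein-coding rows rose. For 83 the nearest gene lay within 0.5 in log2FC. No minimum level was set for this count, and a neighbour without counts scores 0. Among all members, 355 of 380 antisense, 154 of 154 divergent and 104 of 132 intergenic ones had a neighbour with a sum of at least 45. The pairs that rose together included the antisense members at SLC24A4, FHDC1, FSTL4 and CRHR2. At FHDC1, a formin-related gene, CATG00000074196.1 went from 5 to 42 counts and the coding gene from 46 to 102. At FSTL4, CATG00000077590.1 went from 1 to 16 and the coding gene from 39 to 130. At CRHR2, the corticotropin-releasing hormone receptor 2 gene, CATG00000091811.1 went from 5 to 24 and the coding gene from 4 to 18. Of the 20 risen divergent members, none had a risen partner. In the E2F4 library the nearest gene rose for 3 of 21 risen members (3.35% of all protein-coding rows rose), in NKX2-8 for 2 of 31 (2.42%) and in the 5 other TF libraries for none. These counts are too small to set the members apart from coding genes in general.

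**Figure D4:**
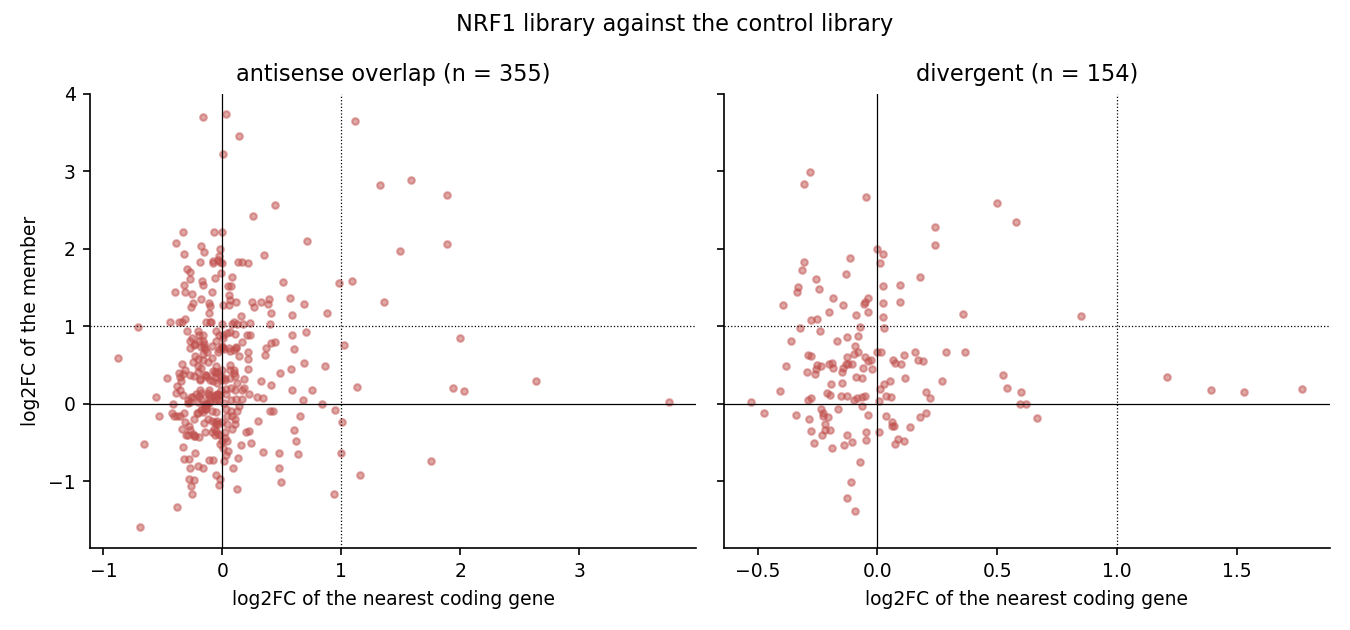
Log2FC of the member (vertical) against log2FC of its nearest coding gene (horizontal) in the NRF1 library, for 355 antisense overlap and 154 divergent members whose coding gene had a sum of at least 45; dotted lines mark 2-fold. Most points spread upwards near 0 on the horizontal axis, and no divergent member lies beyond 2-fold on both.

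Across members, changes of member and nearest coding gene were weakly related, as the plot of members against their neighbours shows for NRF1. Spearman's rho there was 0.117 over 355 antisense pairs and -0.002 over 154 divergent pairs. The highest rho of any class and library was 0.268, for divergent pairs in the E2F4 library. At RHBDL3, a rhomboid-like protease gene, the divergent CATG00000033386.1 had 4 counts in the control library, 17 in NRF1, 45 in E2F4, 4 in EGR1, 6 in ZBTB7A and 0 to 2 in the control TF libraries, and RHBDL3 went from 199 to 438 counts between the control and E2F4 libraries.

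In the E2F4 library the risen members were led by transcripts that were at or near 0 elsewhere and met the sum of 45 through that library. E2F4 is a cell cycle factor that acts with pocket proteins. CATG00000058404.1, antisense to EWSR1, had 49 counts there and 0 to 4 in the 8 other libraries, at least 16.8-fold above the control library with 3 counts in place of its 0 (lower limit of the exact 95% interval 13.2). CATG00000006970.1 (chr1:88928404-88932104, plus strand, intergenic, 217801 bases from PKN2) had 42 counts there and 0 to 3 elsewhere, at least 14.4-fold (lower limit 11.2). CATG00000044635.1, whose window is printed above, had 40, at least 13.7-fold (lower limit 10.7). These members entered through the E2F4 library and were named for their rise in it. Their folds and limits therefore describe their counts and are no support for a change. Of those at 1 CPM or more, 11 of 146 antisense (7.53%), 6 of 47 divergent (12.8%) and 4 of 47 intergenic members (8.51%) rose, and 7 of the 11 that fell were intergenic. CATG00000116987.1, antisense to the chromatin reader gene ZMYND11, also holds the E2F letters and had 13 counts in the control library, 31 in E2F4 and 4 to 17 in the others.

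In the EGR1 library 11 of 53 intergenic members at 1 CPM or more rose (20.8%), 13 of 145 antisense (8.97%), 3 of 43 divergent (6.98%) and 3 of 22 sense overlap members (13.6%), with 1 sense downstream member. EGR1 is a zinc finger factor of the immediate early response. CATG00000057961.1 (chr22:47538261-47540380, plus strand) lies inside TBC1D22A on the same strand and had 103 counts in the EGR1 library and 0 in each of the 8 other libraries, so it met the sum of 45 through EGR1 alone. As a description, it was at least 39.4-fold above the control library (lower limit 31.5). TBC1D22A had 340 to 489 counts in all libraries and 394 in EGR1. CATG00000024312.1 (chr15:101792321-101794667, plus strand) starts 184 bases from CHSY1, a chondroitin synthase gene, and is divergent from it. It had 1 count in the control library, 34 in EGR1, 29 in E2F4 and 1 to 5 in the others, a 39.1-fold difference between EGR1 and control (6.55 to 1587). CHSY1 had 824 counts in the control library, 778 in EGR1 and 1199 in E2F4, a log2FC of 0.12 in EGR1 and 0.58 in E2F4 after scaling. CATG00000093307.1, a conserved intergenic member 6346 bases from the stress-response gene ATF3, had 20 counts in the control library, 3 in EGR1 and 8 to 23 in the others, a ratio of 0.172 (0.0328 to 0.581).

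A pair of members on opposite strands of chromosome 1 was high in the EGR1 and NKX2-8 libraries together. CATG00000015649.1 (chr1:121484151-121485462, plus strand) and CATG00000073777.1 (chr1:121484053-121485394, minus strand) overlap by 1244 bases at the edge of a run of unread bases that starts at 121485435 and spans 21.1 Mb around the centromere of the build. The plus-strand member had 28 counts in the control library, 4 in NRF1, 4 in E2F4, 152 in EGR1, 3 in ZBTB7A, 2 in HOXA11, 5 in RORA, 8 in TFCP2 and 87 in NKX2-8. The minus-strand member had 23, 3, 1, 171, 2, 4, 6, 15 and 91 counts in the same order. Both strands thus had much the same level in each library, highest in EGR1 and then NKX2-8, with the control library next. They fell against the control library in 6 and 5 of the TF libraries, and 6.04 CPM in NKX2-8 for the minus-strand member stood against 0.238 to 0.859 CPM in the 3 other control TF libraries. The nearest coding gene, FAM72B, is 628470 bases from the plus-strand member and had 300 to 457 counts. The place next to unread repeats makes the assignment of these reads to this locus uncertain. Without the pair, the summed level of the other 130 intergenic members was 174.7 CPM in the EGR1 library in place of 194.8, and 164.4 in NKX2-8 in place of 176.2.

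ZBTB7A, a zinc finger factor known as a repressor, had 8 of 134 antisense (5.97%) and 2 of 41 divergent members (4.88%) that rose. CATG00000036918.1 at APCDD1 had 2 counts in the control library, 18 in ZBTB7A, 19 in EGR1, 11 in NRF1, 7 in E2F4 and 2 to 5 in the control TF libraries, or 11.4-fold in ZBTB7A (2.74 to 102). CATG00000052211.1 (chr20:633597-639591, plus strand) starts 417 bases from SRXN1, the sulfiredoxin gene, and had 5 counts in the control library, 18 in ZBTB7A and 2 to 16 in the others, or 4.58-fold (1.64 to 15.8). The NRF1 value of 16 lay close to the ZBTB7A value. None of the 43 intergenic members at 1 CPM or more rose in this library, and 4 fell.

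In the HOXA11 library, which carries a homeobox TF, 10 of 139 antisense (7.19%) and 8 of 48 divergent members (16.7%) at 1 CPM or more rose. CATG00000034724.1 (chr17:76373370-76375338, minus strand), antisense to the phosphatidylglycerophosphate synthase gene PGS1, had 3 counts in the control library, 58 in HOXA11 and 4 to 15 in the others, or 21.1-fold (6.89 to 106). CATG00000057248.1, antisense to VPREB3, had 3 in the control library, 41 in HOXA11 and 5 to 15 in the others, or 14.9-fold (4.77 to 75.5). CATG00000041303.1 (chr19:50596683-50651483, minus strand, downstream of IZUMO2) had 61 to 74 counts in the 8 other libraries and 217 in HOXA11, a log2FC of 1.77. CATG00000033544.1 starts 83 bases from MRPL45, a mitochondrial ribosomal protein gene, and is divergent from it. It had 1 count in the control library, 23 in HOXA11, 26 in NKX2-8 and 4 to 11 in the others, or 25.2-fold in HOXA11 (4.08 to 1036) and 31.7-fold in NKX2-8 (5.21 to 1301). MRPL45 had 862 to 1237 counts, a log2FC of -0.13 in HOXA11 and 0.06 in NKX2-8.

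RORA, a nuclear receptor, and TFCP2, of the grainyhead family, had the fewest risen members. For TFCP2 the control library itself held 9812 counts of the insert, and what this did to the calls was not tested. With the mean of the 7 remaining TF libraries as the reference, 2 members rose and 7 fell in TFCP2. CATG00000114326.1 (chrX:118340121-118343596, minus strand, 26612 bases from PGRMC1) had 8 counts in the control library, 56 in RORA, 40 in NRF1, 22 in NKX2-8, 19 in EGR1, 17 in E2F4 and 4 to 8 in the others, or 7.78-fold in RORA (3.69 to 18.9). CATG00000048536.1, antisense to the kinase gene VRK2, had 7 in the control library, 30 in TFCP2, 18 in RORA and 6 to 17 in the others, or 4.51-fold in TFCP2 (1.94 to 12.2). CATG00000076401.1 at SERINC5 had 10 in the control library, 29 in TFCP2 and 8 to 20 in the others. CATG00000011881.1 at CACNB3 was highest in the control library, at 23 counts, and had 5 in TFCP2 and 8 to 12 in the others. In the NKX2-8 library, which carries another homeobox TF, CATG00000061571.1, antisense to the importin gene KPNA1, fell from 22 to 3 counts, a ratio of 0.166 (0.0319 to 0.554), and had 7 to 16 in the others.

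Few members were called in several TF libraries, and these calls share the control library. Of the 775, 607 rose in none, 129 in 1, 31 in 2 and 8 in 3 or more. Only 241 to 347 members per comparison reached 1 CPM and could be called. The same count was not made over all genes, so it does not set members apart from other rows. CATG00000111224.1 (chr10:32217443-32224810, plus strand), antisense to ARHGAP12 and starting 361 bases from it, rose in 6. It had 5 counts in the control and 11 to 22 in the 8 TF libraries, so the control was the lowest and the TF libraries overlapped one another. With the mean of the 7 remaining TF libraries as the reference its log2FC was 0.19 in ZBTB7A, 0.29 in RORA and -0.01 in TFCP2, and the call was lost in all 3. CATG00000048904.1, antisense to PCYOX1, rose in 4, with 7 counts in the control library, 36 in HOXA11 and 6 to 19 in the others.

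The study's own contrast, CLB_TF against control TF, was tested over libraries with edgeR's quasi-likelihood test on all genes. Its p-values measure the spread between the TFs of a class, since no TF has a second library. Of 379 members that passed its filter on low counts none had an adjusted p under 0.05, and over all 15012 genes tested 0.04% did. At an unadjusted p under 0.05 there were 18 members, 13 higher and 5 lower in the CLB_TF libraries, or 4.75%, where the share of all genes was 10.2%. DESeq2's Wald test called 1 member, CATG00000033386.1 at RHBDL3 (adjusted p = 0.0188), and 156 genes in all. With no filter, edgeR called 20 of 775 members and 795 of 35115 genes, so the members did not stand out.

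The members with the smallest p, chosen after their values were seen, were as follows. CATG00000074196.1 at FHDC1 had 42 counts in NRF1, 19 in E2F4, 10 in EGR1 and 16 in ZBTB7A, against 7 in HOXA11, 3 in RORA, 4 in TFCP2 and 7 in NKX2-8 (log2FC 2.07, adjusted p = 0.190 by edgeR's quasi-likelihood test). The groups did not overlap. CATG00000111589.1 (chrX:71525895-71531725, plus strand, antisense to CITED1) had 17 to 44 counts in the CLB_TF libraries and 12 to 15 in the control TF libraries, at log2FC 1.12 (adjusted p = 0.246 by edgeR). CATG00000015243.1, antisense to the transcription factor gene DACH1, had 24 to 69 against 15 to 21, at log2FC 1.19 (adjusted p = 0.262 by edgeR). CATG00000087948.1, intergenic near TRIM27, was lower in the CLB_TF libraries, at 13 to 23 counts against 30 to 42 (log2FC -0.84, adjusted p = 0.285 by edgeR).

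**Figure D5:**
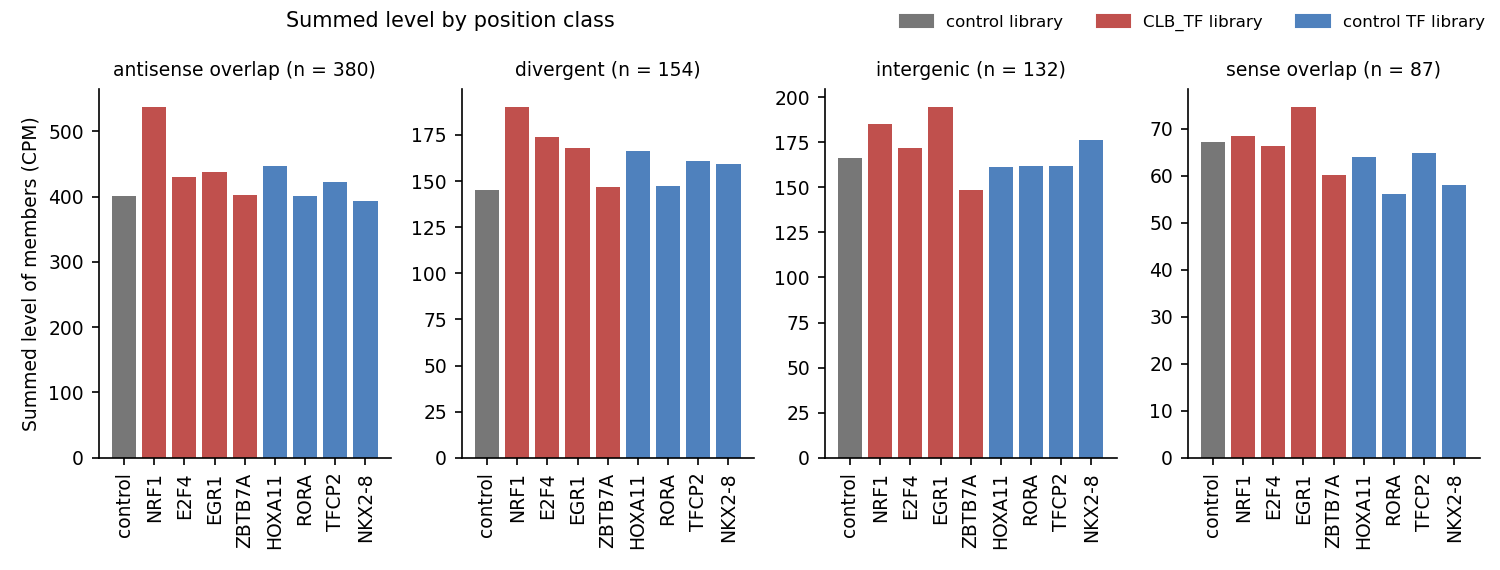
Summed level in CPM of the members of each of 4 position classes in the 9 libraries (grey control, red CLB_TF, blue control TF), 1 library per bar with no replicates. NRF1 is the highest bar for antisense overlap (537.9 CPM) and divergent members (190.4 CPM), and EGR1 for intergenic (194.8 CPM) and sense overlap members (74.7 CPM).

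Summed over all members, the level was 799 CPM in the control library, 1007 in NRF1, 864 in E2F4, 898 in EGR1, 778 in ZBTB7A, 869 in HOXA11, 786 in RORA, 832 in TFCP2 and 808 in NKX2-8. The NRF1 library was the highest and ZBTB7A the lowest, so the CLB_TF libraries held both ends of the range. The mean was 887 ± 94.6 CPM (SD, n = 4) for CLB_TFs and 824 ± 35.6 (SD, n = 4) for control TFs, and the difference of 63.4 CPM was within the spread between TFs (two-sided exact permutation test, p = 0.314, adjusted p = 0.354 over 9 tests, where the smallest p that 4 against 4 allows is 0.0286). Without the NRF1 library the difference was 23.4 CPM and without ZBTB7A 99.6. Antisense members summed to 400.5 CPM in the control and 392.9 to 537.9 in the TF libraries, and divergent members to 147.0 to 190.4 in the TF libraries. The exact permutation p of the classes was 0.314 for antisense, 0.286 for divergent, 0.429 for intergenic and 0.143 for sense overlap members, with adjusted p of 0.354 to 0.429.

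The number of members called in either direction was 103 in NRF1, 32 in E2F4, 37 in EGR1 and 21 in ZBTB7A, and 30 in HOXA11, 13 in RORA, 11 in TFCP2 and 49 in NKX2-8. Over all genes the shares called in either direction were 8.47%, 3.95%, 2.78% and 2.36% for the CLB_TFs and 1.51%, 0.915%, 0.676% and 3.71% for the control TFs, in the same order. The NKX2-8 library, of a control TF, had more called members than 3 of the 4 CLB_TF libraries. The ratio of geometric means between the classes was 1.87 (two-sided exact permutation test, p = 0.229, adjusted p = 0.354), and for risen members alone 2.68 (exact p = 0.257, adjusted p = 0.354). CATG rows below the sum of 45 had 547 CPM in the NRF1 library, 446 in EGR1, 370 in NKX2-8, 278 in the control and 299 to 319 in the others. So the NRF1 and EGR1 libraries were also the highest for rows that are no members, and the part of their wider detection in the rise of members was not tested.

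Members of the study's conserved set rose about as frequently as the rest. Of the 775, 83 were conserved between human and mouse by that set, 51 of them antisense and 18 divergent. In the NRF1 library 12 of 39 conserved members at 1 CPM or more rose (30.8%), against 85 of 308 others (27.6%). The shares in the EGR1 library were 3 of 28 (10.7%) and 28 of 246 (11.4%), in E2F4 2 of 28 (7.14%) and 19 of 244 (7.79%), and in ZBTB7A 1 of 26 (3.85%) and 9 of 219 (4.11%). These are counts of members, which are not replicates, and no test was made of them. The study compared expression change adjusted for abundance over its conserved lncRNAs at large. The 2-fold calls of 83 members are another measure on a part of that set, so they do not answer the study's question.

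Nor did the motif letters separate members that rose in the NRF1 library. With the NRF1 letters, 10 of 37 members at 1 CPM or more rose (27.0%) and none fell, and without them 87 of 310 rose (28.1%) and 6 fell, at median log2FC of 0.30 and 0.26. Matches lay mostly in GC-rich windows. In the GC bin next to the highest (63.3% to 72.3%) 6 of 16 members with the letters and 24 of 82 without them rose, and in the highest bin (72.7% to 86.0%) 4 of 17 and 23 of 66. Over the 4 GC bins the shares ran from 17 of 72 risen (23.6%) in the lowest to 27 of 83 (32.5%) in the highest. With the E2F letters 3 of 17 members rose in the E2F4 library (17.6%) and without them 18 of 255 (7.06%), a difference that rests on 3 members. Of these 3, CATG00000044635.1 had 40 of its 54 counts in the E2F4 library and was a member only through it. Members with the E2F letters also rose more frequently in the NRF1 library, 7 of 20 (35%) against 90 of 327 (27.5%). In NKX2-8 these were 2 of 14 and 29 of 246, and in TFCP2 1 of 14 and 5 of 248, so they rest on 1 or 2 members. None of the 11 to 13 members with these letters at 1 CPM or more rose in the RORA, HOXA11, EGR1 or ZBTB7A libraries. None of the 4 members with the EGR1 letters at 1 CPM or more rose in the EGR1 library, where 31 of 270 without them did. The study scanned database motifs in the 500 bases upstream, which exact letters do not reproduce. With the letters searched in those 500 bases, 8 of 40 members with a match and 89 of 307 without rose for NRF1. For E2F4 these were 3 of 20 and 18 of 252, and for EGR1 0 of 5 and 31 of 269.

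Genes that act on short-lived noncoding RNAs did not reach the 2-fold limit. The list held 35 genes of the nuclear exosome, its adaptors and Integrator, all at 1 CPM or more, and none rose or fell at least 2-fold in any TF library. Their median log2FC ran from -0.14 in NRF1 to 0.02 in NKX2-8, and single genes lay between -0.66 and 0.59, both in NKX2-8.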

How the data were processed

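Total RNA of 9 libraries of 293T cells was sequenced in pairs after a directional library preparation. The methods name a miRNeasy kit and the labels TRIzol for extraction. Per the study's methods and the submitters' processing notes, reads were checked with FastQC 0.11.2, mapped to GRCh37 with STAR 2.6.0c and, where uniquely mapped, counted with featureCounts 1.6.3. The deposited table holds the authors' raw counts per gene, with no normalization. Gene models came from GENCODE, FANTOM5 and an earlier catalogue of the authors.

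Members and lists were chosen with earlier results of these data known. For scaling, TMM factors were computed in edgeR 4.0.16 under R 4.3.3. Log2FC used a prior count of 2. Ratios carry exact conditional binomial intervals at 95%, which cover counting error only, and a count of 0 was replaced by 3 for a lower bound. CLB_TFs and control TFs were compared by edgeR's quasi-likelihood test across all genes after filterByExpr, with Benjamini-Hochberg adjustment at 0.05, and by two-sided exact permutation tests of 1 value per TF. Nothing in the labels tells separate cultures from repeats of 1 culture, since each condition has 1 library. Coding genes were taken from GENCODE v44lift37, in which 35408 gene IDs were found. Printed sequences were read from GRCh37 at the table's starts. The conserved set was taken by identifier from the study's supplement.

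Named members were, per TF library, the 3 largest rises and the largest fall among called members ranked with a prior count of 5, the 6 highest per kb of exon, the 2 highest of each position class and those nearest to the minimum sum, and others are said to be chosen later or stand for a count or a pair. Some members that this rule names, and 1 marker, are not reported here. Alternatives were DESeq2 1.42.0 (size factors and Wald test), library totals, no filter, other minimum levels and prior counts, another reference, other distances, a 500-base window and leaving out libraries. Depth was 14177970 to 18915400 counts per library.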

Additional observations from a re-analysis of the deposited data

Results flagged for a closer look

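Within each class of 4 TF libraries, 1 library was looked for that lay far from the other 3 by Dixon's ratio (above 0.829), for each summed level and each named member. Chance flags about 1 in 20 groups. Of 102 groups, 19 were found, but most of the members were named for a large change in 1 library, so this number is set by that choice and says nothing against chance. No explanation was tested.

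Among summed values, the intergenic members of the NKX2-8 library had 176.2 CPM against 161.3 to 162.1 in the other control TF libraries, and that library had 3687 CATG rows with a count against 3306 to 3353.

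In the NRF1 library, CATG00000064751.1 at SLMAP had 5.11 CPM against 0.187 to 0.760 in the other CLB_TF libraries, and CATG00000030633.1 at CTC1 0.694 against 0.168 to 0.250. In the E2F4 library, CATG00000006970.1 near PKN2 had 2.35 CPM against 0 to 0.189, CATG00000044635.1 near ANKRD30BL 2.24 against 0.125 to 0.207, and CATG00000058404.1 at EWSR1 2.74 against 0.0624 to 0.252.

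The EGR1 library held CATG00000057961.1 within TBC1D22A at 6.43 CPM against 0 in the other CLB_TF libraries, and the chromosome 1 pair CATG00000015649.1 and CATG00000073777.1 at 9.49 and 10.7 against 0.207 to 0.252 and 0.0560 to 0.189. CATG00000111224.1 at ARHGAP12 was lower there, at 0.749 against 1.18 to 1.26. CATG00000111151.1 at CDK16 had 1.52 CPM in ZBTB7A against 1.18 to 1.20.

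Among the control TF libraries, the same pair had 5.77 and 6.04 CPM in NKX2-8 against 0.119 to 0.458 and 0.238 to 0.859, CATG00000041303.1 near IZUMO2 had 12.9 in HOXA11 against 3.69 to 4.51, and CATG00000066476.1 at EPHX4 had 19.6 in HOXA11 against 17.4 to 17.6. Small counts set apart CATG00000005468.1 at PRDM11 (0.0573 CPM in TFCP2 against 0.531 to 0.595), CATG00000036918.1 at APCDD1 (0.286 in TFCP2 against 0.119 to 0.133), and in RORA CATG00000006970.1 (0.0604 against 0).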

How the results depend on the processing

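The scarcity of members sets how far the calls go: with 1 CPM standing for 14.5 to 18.4 counts, the minimum level decided more calls than the scaling did. With a minimum of 0.5 CPM the called members were 172 in NRF1, 76 in E2F4, 94 in EGR1, 69 in ZBTB7A, 73 in HOXA11, 58 in RORA, 52 in TFCP2 and 119 in NKX2-8. At 2 CPM they were 29, 8, 9, 1, 9, 2, 1 and 9. With features at a mean of at least 1 CPM over the 9 libraries, added after seeing the data, they were 22, 7, 6, 8, 12, 5, 5 and 16. A prior count of 0.5 gave 22 in TFCP2, and a prior count of 5 gave 20 in E2F4, 24 in EGR1, 13 in ZBTB7A, 7 in TFCP2 and 29 in NKX2-8. With the 7 remaining TF libraries as the reference they were 19 in E2F4, 22 in EGR1, 10 in ZBTB7A, 18 in HOXA11, 5 in RORA and 29 in NKX2-8. DESeq2 size factors, library totals and leaving out members with shared exons kept each count within 1.5 times. Library totals moved the median log2FC of all genes in NRF1 to 0.13, and that of members to 0.40. At 0.5 CPM 33 rose and 25 fell in RORA, and at 1 CPM 3 and 10.

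In the CLB_TF contrast edgeR with no filter called 20 of 775 members, beside 795 of 35115 genes. DESeq2's Wald test called 1 member, beside 156 genes in all. Leaving out each TF library in turn gave 0 members each time. The ratio of called members ran from 1.36 to 2.46 when 1 TF library was left out and was 1.21 without both NRF1 and EGR1. Without both, which was added after seeing the data, the difference in summed level turned to -2.21 CPM for all members (exact permutation p = 0.933) and to -5.30 CPM for intergenic members (exact permutation p = 0.533). Leaving out 1 library, it lay between 23.4 and 99.6 CPM for all members, 7.77 and 53.0 for antisense, 4.32 and 18.8 for divergent, 3.09 and 18.6 for intergenic and 4.25 and 9.11 for sense overlap members. The cause was not tested.

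With divergent starts up to 5000 bases apart, 5 members were in other arrangements. With neighbours up to 10000 bases, 20 were downstream, 17 in other arrangements and 14 upstream. The other position classes and the motif counts stayed within 1.5 times.

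Of 30 named changes, 12 kept their call at a minimum of 2 CPM and 20 with the 7 remaining TF libraries as the reference. CATG00000111224.1 in TFCP2 turned to -0.011 in log2FC with that reference. No paired analysis was possible because each group had 1 library.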

Other observations

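Further members, chosen after their values were seen, were high in 1 library. In the NRF1 library CATG00000019381.1, divergent from the GPI-anchor synthesis gene PIGH, had 54 counts, with 8 in the control and 8 to 14 elsewhere (log2FC 2.66), and CATG00000086529.1, intergenic near ULBP1, a ligand gene of the NKG2D receptor, had 44, with 5 in the control and 1 to 8 elsewhere (2.88). CATG00000105235.1, which starts 191 bases from SMU1, a spliceosome gene, had 82 counts in the HOXA11 library, 17 in the control and 10 to 27 elsewhere (2.26). CATG00000024483.1 had 224 counts in the E2F4 library, 97 in the control and 46 to 86 elsewhere (1.23), and it shares exon bases with the pseudogene WHAMMP1, so its counts are uncertain.

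Some members were highest in the control library. CATG00000088944.1 near HTR1B had 23 counts there and 6 to 18 in the TF libraries, and CATG00000008912.1 within ATF1 had 19 there and 3 to 12 in the TF libraries.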
